A study of Mus musculus with 12 samples.

Results

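The mitochondrial genome transcripts described here are the rows of the deposited gene count table that lie on the mitochondrial chromosome. There were 37 of them among 44792 rows: 13 mRNAs, 2 rRNAs and 22 tRNAs. The start and end of all 37 were the same in the RefSeq annotation of GRCm38.p6 and in GENCODE M21, and 28 lie on the plus strand and 9 on the minus strand. The minus strand holds ND6 and 8 tRNAs. Of the 37, 28 passed the filter on low counts (13 mRNAs, 2 rRNAs and 13 tRNAs). The other 9 are all tRNAs and were given counts but no test.

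The mitochondrial genome is a small circle that is transcribed on both strands into long RNAs, which are then cut into mRNAs, rRNAs and tRNAs, often at the tRNAs that stand between the other genes. Its mRNAs encode subunits of respiratory complexes I, III and IV and of ATP synthase (complex V), while every other subunit, and every protein that copies, transcribes and processes the genome, comes from the nucleus. Proximal tubule cells of the kidney cortex are rich in mitochondria, since they take up filtered salts and nutrients by active transport. In mammals most mitochondrial mRNAs are known to carry short poly(A) tails, and in human cells ND6 is known as the one that lacks such a tail.

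RNA was sequenced from primary renal tubular epithelial cells of the kidney cortex of C57BL/6 mice, in 4 groups of 3 libraries, and the design text counts 3 mice per genotype. The MYC-OE;Setd2-KO group carried Ksp1.3/cre; MYCfl/fl;Setd2fl/fl, the MYC-OE group Ksp1.3/cre; MYCfl/fl, the Setd2-KO group Ksp1.3/cre; Setd2fl/fl, and the WT group Setd2fl/fl without Cre. Floxed Setd2 is therefore shared by every group other than MYC-OE, and Cre by every group other than WT. The protein of Setd2 trimethylates lysine 36 of histone H3, and MYC drives the transcription of growth genes. Ksp-cadherin, whose promoter drives the Cre, is a protein of tubular epithelium. Poly(A) RNA was selected and the libraries were made with a directional kit, per the labels' protocols. The labels give no ages.

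Total counts ranged from 8889185 to 44227191 per library. As a check of the labels, Setd2 stood at 45.6 to 102 CPM (the share of the library's total counts, on the usual CPM scale) in MYC-OE;Setd2-KO against 68.7 to 89.7 CPM in MYC-OE, and at 50.9 to 69.7 CPM in Setd2-KO against 56.0 to 68.6 CPM in WT. The groups overlapped in both comparisons, so the genotypes rest on the labels; the floxed exons are not named in the labels. Myc stood at 6.03, 2.03 and 17.8 CPM in MYC-OE;Setd2-KO, 3.56, 7.06 and 6.05 CPM in MYC-OE, 2.47, 2.26 and 4.38 CPM in Setd2-KO, and 2.72, 2.48 and 2.51 CPM in WT. The library labelled MYC-OE;Setd2-KO 2 thus lay below every WT library for Myc, against its label; the labels do not say whether transcripts of the construct count on this row. Every library is called here by its label, and without this one 0 members were called in either comparison of MYC-OE;Setd2-KO. The libraries also fell into 3 sets that cut across the groups. They were placed here by how many of 79 cytosolic ribosomal protein genes, which are nuclear, stood under 5 CPM. The total behind CPM includes the mitochondrial counts, so the placing is not fully free of them. Set A (29 to 32 such genes) held WT 1, 2 and 3 and Setd2-KO 1 and 2. Set B (10 to 15) held MYC-OE 1 and MYC-OE;Setd2-KO 1 and 2, and set C (2 to 5) held MYC-OE;Setd2-KO 3, MYC-OE 2 and 3 and Setd2-KO 3. No set held both MYC-OE and WT libraries, so the difference between these groups and the step from set A to the others cannot be told apart within a set. When the sets enter the fit as a term, the model places that step by Setd2-KO 3 alone. Setd2-KO 3 and MYC-OE;Setd2-KO 1 and 3 were also the libraries with high Xist and no Y-chromosome counts, while all others had Y-chromosome counts, so sex differs within and between the groups in each comparison with Setd2-KO or MYC-OE;Setd2-KO; its part in the results was not tested. The labelled cell type is tubular epithelium. Markers of proximal tubule cells were present in every library. Their summed level over 14 genes was 3018 to 23218 CPM in MYC-OE;Setd2-KO, 4008 to 19381 CPM in MYC-OE, 15200 to 25558 CPM in Setd2-KO and 20741 to 24491 CPM in WT. The lowest values were those of MYC-OE;Setd2-KO 3 and MYC-OE 2 and 3. In whole-sample RNA, fewer cells of a type and less RNA per cell cannot be told apart.

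Several of the sequences bear on how the counts can be read, and they are given on GRCm38 from the GENCODE M21 transcripts. The first pair is shown because neighbouring mitochondrial genes share bases, so that a read there belongs to both. ATP8 and ATP6, subunits of ATP synthase, overlap by 43 bases on the same strand, and ND5 and ND6, subunits of complex I, overlap by 14 bases on opposite strands. ATP8 is given whole (chrM:7766-7969, plus strand) with the bases it shares with ATP6 in capitals, and the last 100 bases of ND6 (chrM:13552-13651, minus strand) with the bases it shares with ND5, read on the other strand, in capitals.
ATP8: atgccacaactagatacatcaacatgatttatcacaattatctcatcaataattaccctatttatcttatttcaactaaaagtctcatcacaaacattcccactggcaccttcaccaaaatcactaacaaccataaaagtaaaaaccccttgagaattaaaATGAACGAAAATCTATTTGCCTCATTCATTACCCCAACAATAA
ND6 end: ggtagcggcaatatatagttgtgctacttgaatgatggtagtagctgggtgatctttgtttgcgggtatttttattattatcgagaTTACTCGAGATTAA

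The second group is shown because it has a nuclear copy. ND4L (chrM:9877-10173, plus strand), a subunit of complex I, is given whole with the 7 bases it shares with ND4 in capitals. Its first 294 bases were found without a difference in Gm10222, an unprocessed pseudogene on chromosome 1 (chr1:24612407-24612700, minus strand). The start of ND3, also of complex I (chrM:9459-9481, plus strand), and that of its copy Gm28438 (chr1:24613097-24613119, minus strand) differ at the one capital, T3C, counted from 1 at the first base of ND3; this was the only difference over 345 bases.
ND4L: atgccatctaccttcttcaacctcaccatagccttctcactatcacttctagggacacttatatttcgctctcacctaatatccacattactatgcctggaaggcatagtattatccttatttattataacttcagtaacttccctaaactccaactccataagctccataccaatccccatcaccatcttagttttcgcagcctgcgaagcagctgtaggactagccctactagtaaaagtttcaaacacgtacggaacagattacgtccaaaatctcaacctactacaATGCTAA
ND3 window: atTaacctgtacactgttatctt
Gm28438 window: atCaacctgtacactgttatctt

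The third group is the tRNAs that the comparisons below turn on, with the anticodon in capitals, found as the 3 bases in the middle of a loop of 7 closed by the anticodon stem. TrnP (proline, chrM:15356-15422), TrnE (glutamate, chrM:14071-14139), TrnC (cysteine, chrM:5192-5257) and TrnA (alanine, chrM:5018-5086) lie on the minus strand, and TrnW (tryptophan, chrM:4950-5016) and TrnT (threonine, chrM:15289-15355) on the plus strand.
TrnP: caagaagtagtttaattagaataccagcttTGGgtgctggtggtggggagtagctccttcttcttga
TrnE: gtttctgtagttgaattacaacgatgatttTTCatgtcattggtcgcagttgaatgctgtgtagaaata
TrnC: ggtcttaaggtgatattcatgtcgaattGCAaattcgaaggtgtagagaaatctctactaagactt
TrnA: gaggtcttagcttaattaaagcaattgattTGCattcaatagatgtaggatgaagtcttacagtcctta
TrnW: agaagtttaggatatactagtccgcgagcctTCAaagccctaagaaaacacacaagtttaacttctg
TrnT: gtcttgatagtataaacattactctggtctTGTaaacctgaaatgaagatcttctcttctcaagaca

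The mitochondrial chromosome took between 6.79% and 26.9% of all counts. Its share was 23.0%, 24.3% and 6.79% in MYC-OE;Setd2-KO, 7.19%, 8.42% and 7.29% in MYC-OE, 21.6%, 22.2% and 12.7% in Setd2-KO, and 23.9%, 24.1% and 26.9% in WT. The 3 MYC-OE libraries and MYC-OE;Setd2-KO 3 were low, Setd2-KO 3 was between, and the other 7 libraries lay above 20%. Nearly all of this was mRNA: the 13 mRNAs held 17.9% ± 9.60 of all counts in MYC-OE;Setd2-KO, 7.60% ± 0.717 in MYC-OE, 17.7% ± 4.39 in Setd2-KO and 23.1% ± 1.72 in WT (SD, n = 3 each).
By an exact two-sided permutation test, which cannot go below p = 0.1 with 3 libraries against 3, the mRNA share differed by -15.5 percentage points in MYC-OE against WT (p = 0.1) and by -5.38 points in Setd2-KO against WT (p = 0.1). In MYC-OE;Setd2-KO against MYC-OE the difference was 10.3 points (exact permutation p = 0.4), and it was 0.118 points against Setd2-KO (exact permutation p = 1). Adjusted over these 4 comparisons by Benjamini-Hochberg, the p-values of the exact permutation tests were 0.2, 0.2, 0.533 and 1, and no pair could pass a threshold of 0.05 at this size. Within set B the MYC-OE;Setd2-KO libraries stood 16.3 points above the MYC-OE library, and within set C the one MYC-OE;Setd2-KO library stood 1.07 points below the mean of the MYC-OE libraries. Measured per 100 TMM-scaled counts outside the mitochondrial chromosome (TMM, a scaling that evens out the typical gene between libraries), that library of set C had 6.56 mRNA counts, between the MYC-OE libraries at 7.15 and 6.08, and the set B difference was 23.3. Within set A, Setd2-KO stood 2.84 points below WT (exact permutation p = 0.2, with 2 libraries against 3). Among the 10 genes with the highest counts, 4 to 6 were mitochondrial in MYC-OE;Setd2-KO, 5 in each MYC-OE library, 6 or 7 in Setd2-KO and 7 or 8 in WT.

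**Figure D1:**
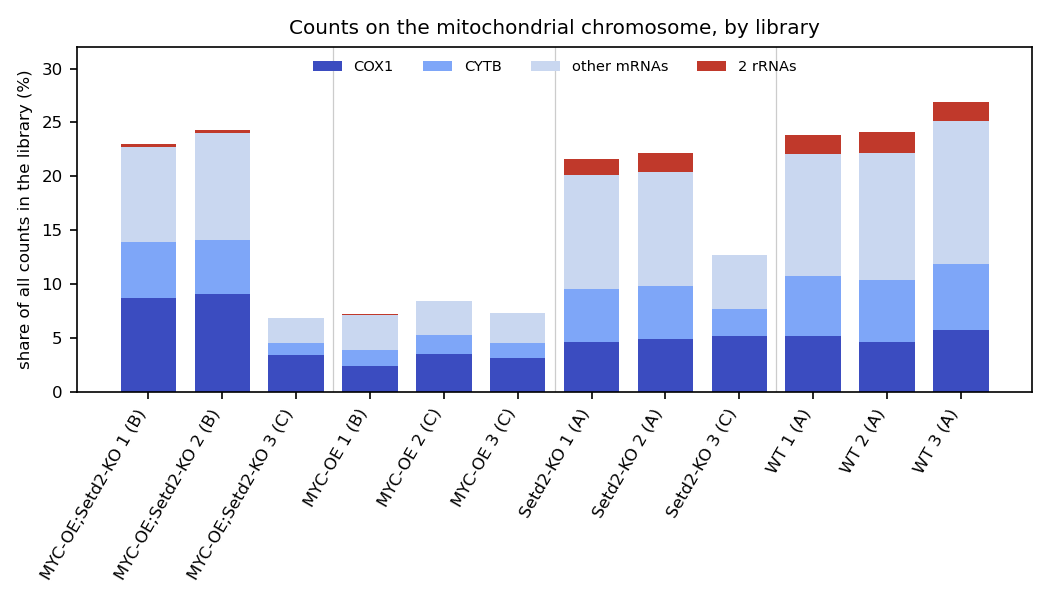
Share of all counts of each library (%) that fell on COX1, CYTB, the other mitochondrial mRNAs and the 2 mitochondrial rRNAs, stacked, with the library set in brackets. The MYC-OE bars end between 7.19% and 8.42%, the WT bars between 23.9% and 26.9%, and the rRNA part is visible in set A, thin in set B and not visible in set C.

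The 2 rRNAs, Rnr1 of the small and Rnr2 of the large mitochondrial ribosomal subunit, did not overlap between the sets. Rnr1 stood at 911, 873 and 0.14 CPM in MYC-OE;Setd2-KO, 385, 0.318 and 0.411 CPM in MYC-OE, 5023, 6679 and 0.48 CPM in Setd2-KO, and 5903, 6614 and 6942 CPM in WT. Rnr2 stood at 1999, 1902 and 0.629 CPM in MYC-OE;Setd2-KO, 590, 0.191 and 0.176 CPM in MYC-OE, 9993, 10724 and 0.78 CPM in Setd2-KO, and 11833, 13008 and 10708 CPM in WT. Libraries of set C held 8 to 21 counts on both genes together, while their mRNAs held 972088 to 2110222 counts. Per 1000 mRNA counts, the rRNAs had 70.3 to 88.6 counts in set A, 11.5 to 13.8 in set B and 0.006 to 0.0113 in set C.
Tests of single genes used the quasi-likelihood F test of edgeR, with p adjusted over all genes by Benjamini-Hochberg, and neither rRNA passed it in any comparison. In MYC-OE against WT the log2 fold change was -6.14 ± 3.35 for Rnr1 and -6.39 ± 3.52 for Rnr2 (SE of 3 libraries per group, edgeR adjusted p = 0.204 and 0.207). With a term for the sets Rnr2 stood at -2.77 ± 0.52 in that comparison (edgeR adjusted p = 0.0346) and at 1.99 ± 0.29 in MYC-OE;Setd2-KO against MYC-OE (edgeR adjusted p = 0.00821). Rnr2 had 10110 counts in MYC-OE 1 and 3 counts each in MYC-OE 2 and 3, so these values rest on MYC-OE 1 for the MYC-OE side. The ratio of Rnr2 to Rnr1 counts was 1.53 to 2.20 in sets A and B. Why the sets differ in rRNA was not tested.

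The 13 mRNAs fell into an upper and a lower tier in every library, with ND6 apart, when set on one scale, CPM per kilobase of gene. ND1, ND2, COX1, ND4, ND5 and CYTB made the upper tier: subunits of complex I, COX1 as the catalytic subunit of cytochrome oxidase (complex IV), and CYTB, the mitochondrially encoded subunit of complex III. COX2 and COX3 of complex IV, ATP6 and ATP8 of complex V, and ND3 and ND4L of complex I made the lower tier. Between the tiers lay a gap: the lowest upper gene stood 19.2 to 31.0 times above the highest lower gene in MYC-OE;Setd2-KO, 22.6 to 26.3 times in MYC-OE, 12.3 to 130 times in Setd2-KO and 104 to 122 times in WT. ND6 lay between the tiers in MYC-OE;Setd2-KO 3, MYC-OE 2, Setd2-KO 1 and 2 and the WT libraries, and within or below the lower tier in the others.
In WT the order of levels per kilobase began with CYTB at 48683, 50337 and 53414, ND1 at 36965, 39530 and 42751, and COX1 at 33337, 29900 and 36916 CPM per kilobase. CYTB did not overlap with ND1 over these 3 libraries, and ND1 lay above COX1 in each of them with ranges that nearly met. ND2 at 23875, 24508 and 32169 CPM per kilobase overlapped with COX1, and ND5 stood at 17201 to 19110 and ND4 at 14628 to 16528 CPM per kilobase.
CYTB, ND1 and COX1 led in the same order in Setd2-KO 1 and 2. In the other 7 libraries, those of sets B and C, COX1 led, followed by CYTB and ND1. COX1 stood at 56147, 58413 and 21871 CPM per kilobase in MYC-OE;Setd2-KO, 15261, 22769 and 20013 in MYC-OE, 29524, 31546 and 33442 in Setd2-KO, and 33337, 29900 and 36916 in WT. Unlike the other upper genes, COX1 in Setd2-KO 3 therefore lay within the WT range.

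**Figure D2:**
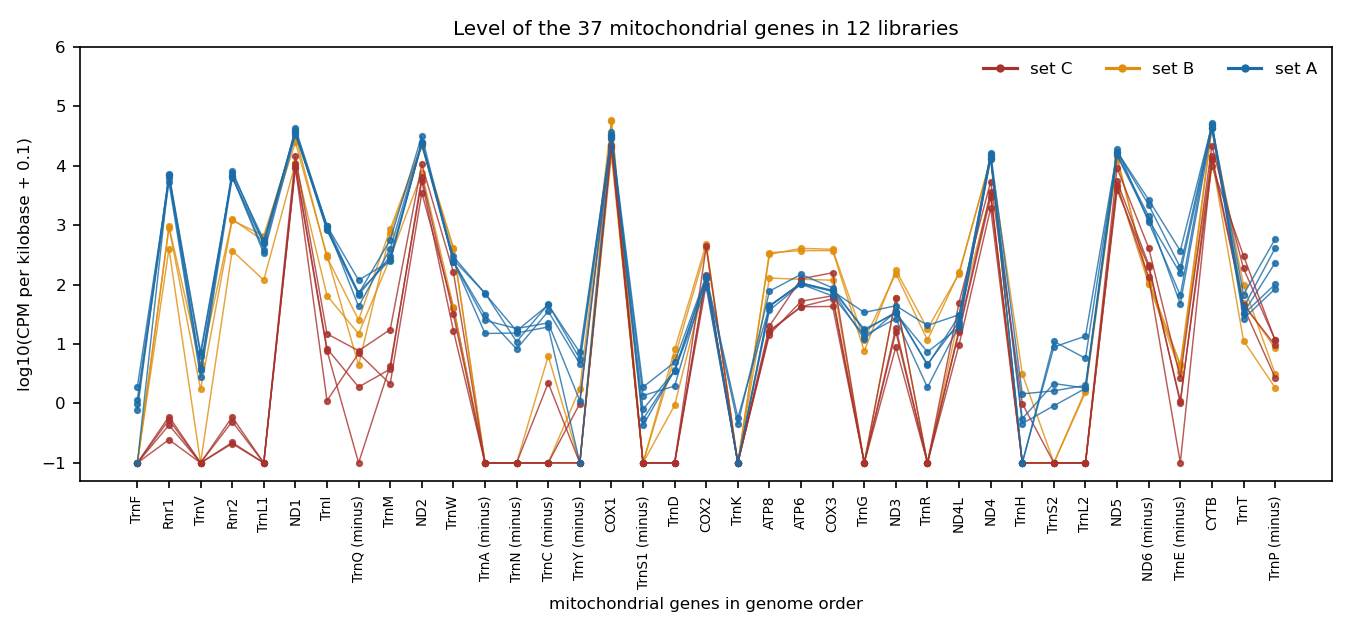
Level of each of the 37 mitochondrial genes in genome order, as log10 of CPM per kilobase plus 0.1, with 1 line per library coloured by library set. The upper mRNAs form the peaks in every library, COX2 to ND4L form a low shelf, and rRNAs and minus-strand tRNAs drop in sets B and C.

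The makeup of the mRNA counts changed with the library sets. COX1 made up 38.1%, 37.6% and 49.8% of mitochondrial mRNA counts in MYC-OE;Setd2-KO, 33.3%, 41.8% and 42.4% in MYC-OE, 22.7%, 23.9% and 40.8% in Setd2-KO, and 23.3%, 20.9% and 22.7% in WT. Every library of sets B and C was above every library of set A, and the MYC-OE and WT libraries did not overlap. COX1 counts per CYTB count were 1.66 to 2.95 in MYC-OE;Setd2-KO, 1.57 to 2.12 in MYC-OE, 0.914 to 2.06 in Setd2-KO and 0.802 to 0.933 in WT.
The 6 lower genes together made up 0.208% to 0.451% of mitochondrial mRNA counts in MYC-OE;Setd2-KO, 0.238% to 0.452% in MYC-OE, 0.101% to 0.434% in Setd2-KO and 0.115% to 0.118% in WT. COX3 was highest in MYC-OE;Setd2-KO 1 and 2, at 293 and 309 CPM. COX2 stood at 279 and 330 CPM in the same libraries, at 69.4 CPM in MYC-OE;Setd2-KO 3, at 87.3, 99.0 and 90.4 CPM in MYC-OE, at 88.6, 62.4 and 301 CPM in Setd2-KO, and at 95.9, 88.6 and 89.3 CPM in WT. For COX2 the MYC-OE range held all 3 WT values.

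**Figure D3:**
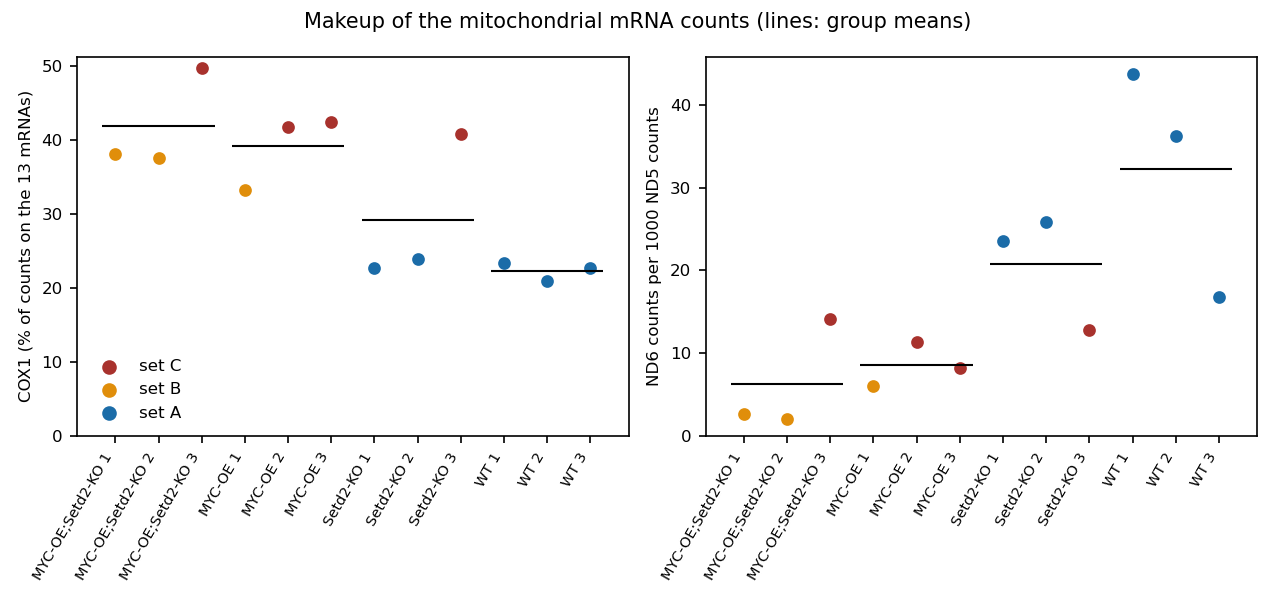
Left, share of COX1 among the counts on the 13 mitochondrial mRNAs (%); right, ND6 counts per 1000 ND5 counts; 1 point per library coloured by set, with lines at group means. COX1 lies above 33% in sets B and C and under 24% in set A, and ND6 lies under 15 per 1000 in sets B and C.

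ND6, the complex I subunit on the minus strand, had the widest range of the mRNAs outside the lower tier. It stood at 61.4, 53.4 and 102 CPM in MYC-OE;Setd2-KO, 53.2, 113 and 68.5 CPM in MYC-OE, 644, 735 and 215 CPM in Setd2-KO, and 1388, 1139 and 585 CPM in WT. The MYC-OE;Setd2-KO and MYC-OE libraries lay below every Setd2-KO and WT library, and MYC-OE;Setd2-KO and MYC-OE overlapped. In MYC-OE against WT ND6 had a log2 fold change of -4.51 ± 0.60 (SE of 3 libraries per group, edgeR adjusted p = 0.033) and was lower in 3 of 3 libraries. In MYC-OE;Setd2-KO against Setd2-KO its log2 fold change was -3.15 ± 0.56 (edgeR adjusted p = 0.503), which did not pass. It was 0.26 ± 0.52 in MYC-OE;Setd2-KO against MYC-OE (edgeR adjusted p = 0.9), -0.11 when scaled by total counts, and -1.10 ± 0.52 in Setd2-KO against WT (edgeR adjusted p = 1).
Set against its neighbour ND5 on the plus strand, ND6 had 2.66, 2.05 and 14.2 counts per 1000 ND5 counts in MYC-OE;Setd2-KO, 6.06, 11.3 and 8.24 in MYC-OE, 23.6, 25.8 and 12.8 in Setd2-KO, and 43.8, 36.3 and 16.8 in WT. The lowest ratios stood in MYC-OE;Setd2-KO 1 and 2 of set B. Within set C the ratios of the 3 genotypes were 14.2 in MYC-OE;Setd2-KO, 11.3 and 8.24 in MYC-OE, and 12.8 in Setd2-KO. All members on the minus strand together had 0.231 to 1.52 counts per 1000 plus-strand counts in MYC-OE;Setd2-KO, 0.761 to 1.35 in MYC-OE, 1.71 to 3.40 in Setd2-KO and 2.26 to 6.13 in WT. No label or header states the strand setting of the counting, so reads from a gene and from RNA of the opposite strand cannot be told apart.

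The 22 tRNAs are short, 59 to 75 bases, and held 356 to 1475 counts per library in MYC-OE;Setd2-KO, 84 to 650 in MYC-OE, 453 to 6464 in Setd2-KO and 5117 to 7826 in WT. At least 1 count was found for 8 to 15 of them in MYC-OE;Setd2-KO, 5 to 9 in MYC-OE, 9 to 21 in Setd2-KO and 19 to 22 in WT. TrnA, TrnN and TrnS1 of the minus strand, and TrnF, TrnK and TrnS2 of the plus strand, had no count in any MYC-OE or MYC-OE;Setd2-KO library. Of the 9 tRNAs that were not tested, TrnF, TrnV, TrnY, TrnS1, TrnD, TrnK, TrnH, TrnS2 and TrnL2, none had more than 22 counts in a library.
The tRNAs of the minus strand summed to 1.23, 2.70 and 1.47 CPM in MYC-OE;Setd2-KO, 1.46, 0.827 and 0.176 CPM in MYC-OE, 36.4, 15.5 and 1.56 CPM in Setd2-KO, and 67.6, 70.7 and 20.9 CPM in WT. Every library of set A lay above every library of sets B and C. On the plus strand the sums were 149, 163 and 23.4 CPM in MYC-OE;Setd2-KO, 36.5, 5.98 and 4.76 CPM in MYC-OE, 135, 140 and 25.6 CPM in Setd2-KO, and 143, 152 and 156 CPM in WT. In MYC-OE;Setd2-KO 1 and 2 the plus-strand sum thus lay near that of WT, while the minus-strand sum lay far below it.

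TrnP, the tRNA for proline, stood at 0.204, 0.562 and 0.768 CPM in MYC-OE;Setd2-KO, 0.117, 0.636 and 0.176 CPM in MYC-OE, 15.6, 5.70 and 0.78 CPM in Setd2-KO, and 27.4, 39.2 and 6.78 CPM in WT. TrnE, for glutamate, stood at 0.307, 0.225 and 0.07 CPM in MYC-OE;Setd2-KO, 0.292, 0.064 and 0 CPM in MYC-OE, 10.7, 3.27 and 0.18 CPM in Setd2-KO, and 25.6, 13.4 and 4.57 CPM in WT. Both were low in all libraries of sets B and C, and even within WT their values spread by over 5 times. TrnC and TrnA, for cysteine and alanine, had no count in MYC-OE, against 66 to 100 and 76 to 161 counts per library in WT.
TrnW and TrnT, for tryptophan and threonine, are plus-strand tRNAs and had other patterns across the libraries. TrnW stood at 26.3, 28.2 and 2.73 CPM in MYC-OE;Setd2-KO, 2.86, 2.1 and 1.12 CPM in MYC-OE, 16.4, 16.7 and 10.8 CPM in Setd2-KO, and 17.6, 19.96 and 16.3 CPM in WT. TrnT stood at 6.64, 3.26 and 20.5 CPM in MYC-OE;Setd2-KO, 0.759, 3.06 and 2.82 CPM in MYC-OE, 2.22, 1.78 and 12.5 CPM in Setd2-KO, and 2.75, 4.57 and 2.13 CPM in WT. TrnT was highest in MYC-OE;Setd2-KO 3 and Setd2-KO 3, both of set C, where most other tRNAs were at or near 0.

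MYC-OE was compared with WT to ask what the MYC construct with Cre changes. Of the 28 members tested, 22 reached the filter's level (0.586 CPM) in at least 1 MYC-OE library, and 3 of these 22 fell by edgeR's test: ND6, TrnP and TrnW. All 22 had a log2 fold change below 0. The other 6, TrnA, TrnN, TrnC, TrnG, TrnR and TrnE, passed the filter only through other groups, so that their direction was fixed; TrnE, TrnC and TrnA passed the test, which makes 6 of 28 called. Over all genes the share called lower in this comparison was 2.36% (402 of 17019), or 1.86% of those that reached the level in MYC-OE, and 957 genes were called higher. Log2 fold changes were -7.08 ± 1.26 for TrnP (edgeR adjusted p = 0.0407), -7.50 ± 1.64 for TrnE (edgeR adjusted p = 0.042) and -3.83 ± 0.85 for TrnW (edgeR adjusted p = 0.0421), each lower in 3 of 3 libraries. TrnC was at least 39.2-fold lower and TrnA at least 58.2-fold lower, taking 3 counts over the MYC-OE group as the floor (edgeR adjusted p = 0.0447 and 0.0486).
The 2 rRNAs, the other 12 mRNAs and the other 8 tRNAs tested did not pass. Among the upper mRNAs the log2 fold changes were -2.97 ± 1.07 for ND4 (edgeR adjusted p = 0.0897), -2.75 ± 1.15 for ND2, -2.67 ± 1.18 for ND1, -2.65 ± 1.41 for CYTB, -2.60 ± 1.10 for ND5 and -1.56 ± 1.42 for COX1 (edgeR adjusted p = 0.12 to 0.433 for these 5). The lower tier lay between -1.37 ± 0.77 for ATP6 and -0.59 ± 1.12 for ATP8. The median over the 13 mRNAs was -1.56, against -0.0046 over all genes. Scaling by total counts moved the median of all genes by 0.76 and put COX2 at 0.02, with the other members still below 0.
In CPM, 14 of the 22 members that reached the level in MYC-OE had every MYC-OE library below every WT library, against 4.81% of such genes. Of the 28 members tested 20 did so, beside 6.5% of all genes tested, and of all 37 members 26 did. The 20 and the 26 include the tRNAs whose direction was fixed. The exceptions among the 22 were COX2, ATP8, ATP6, COX3, ND3, ND4L, TrnM and TrnT. The count of members called lower also moved with the method. The counts that follow, also those with 1 library left out, are over all members tested. They can include the tRNAs whose direction was fixed, so the shares of all genes beside them are no like comparison. DESeq2 called 19 of 28, beside 9.47% of all genes, and limma-voom 2, beside 1.22%. By edgeR it was 10 with total counts (1.36% of all genes), 6 with scaling by genes outside the mitochondrial chromosome (2.41%), 8 of 37 without the filter (0.749%), 12 of 27 with these groups alone in the fit (11.4%), 10 with the replicate block (4.78%) and 20 of 33 without set C (6.2%).
The calls rested on single libraries, among the members as over all genes. None of the 28 was called without MYC-OE;Setd2-KO 1, MYC-OE 2, MYC-OE 3, Setd2-KO 1, WT 1, WT 2 or WT 3, where 1 to 7 of all genes were. Without MYC-OE;Setd2-KO 2 or Setd2-KO 2, 4 members were called lower, beside 1.17% and 1.09% of all genes. Without Setd2-KO 3, 11 were lower, beside 5.45% of all genes. Without MYC-OE;Setd2-KO 3 or MYC-OE 1, 13 were lower, beside 12.6% and 10% of all genes.

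With a term for the library sets, 3 members were lower in MYC-OE against WT, beside 1.47% of all genes: TrnW at -3.82 ± 0.73 (edgeR adjusted p = 0.0348), TrnT at -3.24 ± 0.62 (edgeR adjusted p = 0.0348) and Rnr2. In this fit Setd2-KO 3 alone places the step from set A to the other sets, and TrnT stood at 12.5 CPM in that library. The TrnT values of MYC-OE and WT overlapped, and its log2 fold change without the term was -1.33 ± 0.77 (edgeR adjusted p = 0.224). TrnW was called with and without the term, and ND6, TrnP and TrnE were not called with it. TrnC and TrnA had no count in any MYC-OE library or in Setd2-KO 3. Their folds with the term could therefore not be estimated, and they could not be called. Measured relative to the mitochondrial mRNAs, with their summed count as the library size, nearly all genes were higher (84.5% of all genes called higher and 0.57% lower), which follows from the smaller mRNA share in MYC-OE. Against that, 10 members were lower and 2 were higher. Among the 10 were TrnA, TrnN, TrnC, TrnG, TrnR and TrnE. These passed the filter only through other groups, so their direction was fixed. ND6 stood at -2.18 ± 0.74 (edgeR adjusted p = 0.02) and TrnW at -1.54 ± 0.55 (edgeR adjusted p = 0.0231) on this scale, and COX2 at 1.62 ± 0.66 and COX3 at 1.60 ± 0.62 (edgeR adjusted p = 0.0389 and 0.0313).

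**Figure D4:**
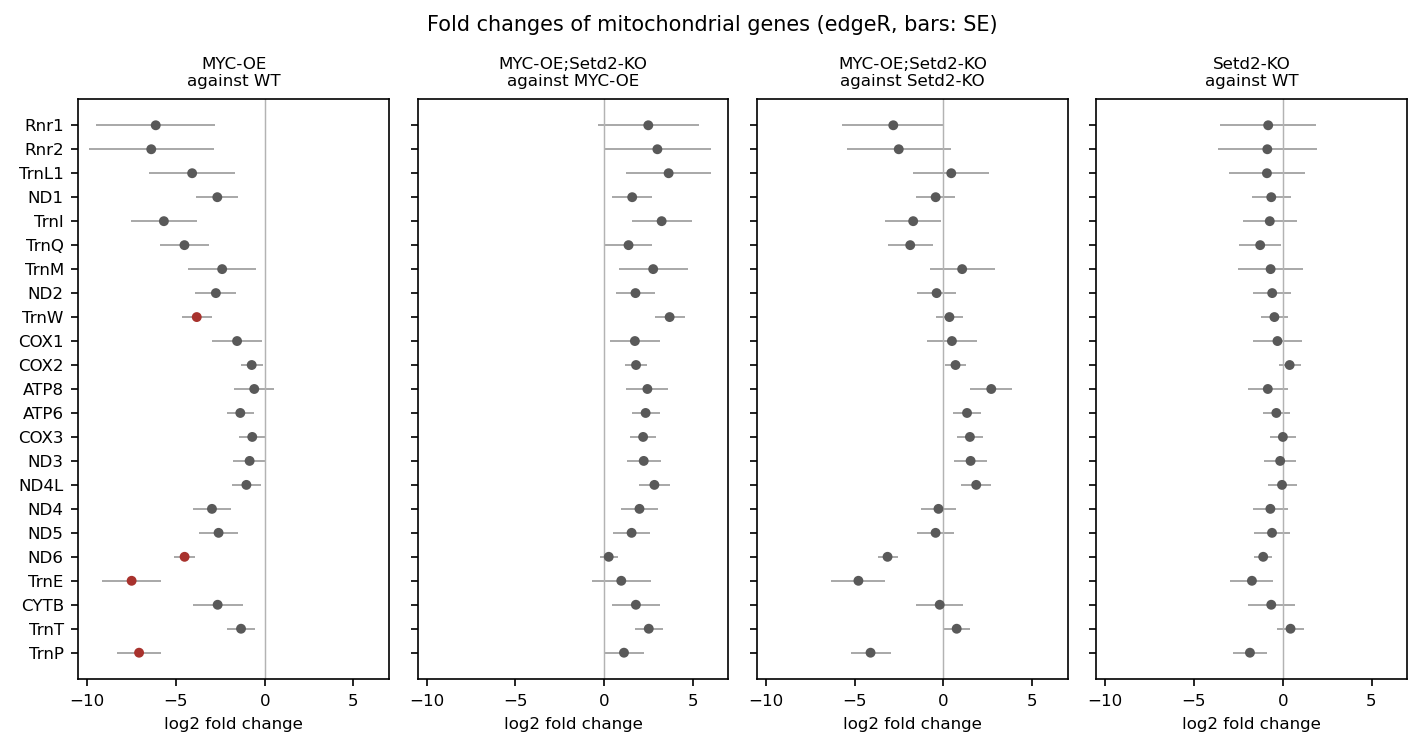
Log2 fold changes with SE (edgeR, 3 libraries per group) of 23 mitochondrial genes in genome order in 4 comparisons, with called genes in red; 5 tested tRNAs with no count in whole groups are left out. In MYC-OE against WT all points lie below 0 and 4 are red, and in MYC-OE;Setd2-KO against MYC-OE all lie above 0 and none is red.

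Setd2-KO was compared with WT to ask what loss of Setd2 changes without the MYC construct. By edgeR 0 of 28 members were called, beside 0% of all genes, and 0 members had an unadjusted p under 0.05. DESeq2 and limma-voom also called 0 members. The log2 fold changes lay below 0 for 25 of 28, with a median of -0.60 over the mRNAs against -0.01 over all genes, and ranged among the upper mRNAs and ND6 between -1.10 ± 0.52 for ND6 and -0.30 ± 1.39 for COX1. The 25 include TrnR, which stayed under the filter's level in every Setd2-KO library, so that its direction was fixed.
ND4 stood at 18462, 18270 and 7491 CPM in Setd2-KO, against 20157, 21714 and 22776 CPM in WT. CYTB stood at 49923, 49343 and 25104 CPM in Setd2-KO, against 55694, 57586 and 61106 CPM in WT. All 3 Setd2-KO libraries lay below all WT libraries for 7 of 37 members, ND1, ND4, ND5, CYTB, TrnQ, TrnG and TrnL2. TrnL2 was not tested, which leaves 6 of the 28 members tested, beside 0.646% of all genes tested. Setd2-KO 3 lay farthest below in each of the 7. With set A alone, 2 libraries against 3, ND4 stood at -0.32 ± 0.18, CYTB at -0.31 ± 0.19, ND1 at -0.27 ± 0.18 and ND6 at -0.67 ± 0.33 on the log2 scale (edgeR adjusted p = 1 for each).

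MYC-OE;Setd2-KO was compared with MYC-OE to ask what loss of Setd2 changes beside the MYC construct. By edgeR 0 of 28 members were called, beside 0.176% of all genes, and all 22 that reached the filter's level in MYC-OE had a log2 fold change above 0. An unadjusted p under 0.05 was found for 9 members, limma-voom called 0, and DESeq2 called 6 higher, beside 1.87% of all genes. TrnA, TrnN, TrnC, TrnG, TrnR and TrnE stayed under that level in every MYC-OE library, so that a fall could not be called for them. The counts of members called higher in this comparison can include such tRNAs. The median over the mRNAs was 1.80, against 0.05 over all genes. TrnW had 3.70 ± 0.84 (edgeR adjusted p = 0.132), ND4L 2.84 ± 0.88 (edgeR adjusted p = 0.212), ATP6 2.34 ± 0.79 (edgeR adjusted p = 0.248) and COX1 1.74 ± 1.42 (edgeR adjusted p = 0.685).
The spread within MYC-OE;Setd2-KO was as wide as this difference. CYTB stood at 52246, 50039 and 11465 CPM in MYC-OE;Setd2-KO, against 15028, 16886 and 14565 CPM in MYC-OE. COX1 stood at 86747, 90248 and 33791 CPM in MYC-OE;Setd2-KO, against 23578, 35179 and 30920 CPM in MYC-OE. Libraries 1 and 2 of MYC-OE;Setd2-KO lay above all MYC-OE libraries for both genes, and library 3 lay below all of them for CYTB and within them for COX1. Only for TrnT did all 3 MYC-OE;Setd2-KO libraries lie above all MYC-OE libraries. That is 1 of the 28 members tested, beside 1.42% of all genes tested, and none of the members that were not tested did so.
With the set term 4 members were called higher, beside 2.83% of all genes: TrnT at 2.99 ± 0.39 (edgeR adjusted p = 0.00656), TrnL1 at 2.61 ± 0.38 (edgeR adjusted p = 0.0136), TrnW at 2.35 ± 0.54 (edgeR adjusted p = 0.0383) and Rnr2. TrnL1 had no count in any library of set C, and Rnr2 had 3 to 13 counts there. For these 2 genes the MYC-OE side therefore rests on MYC-OE 1 alone. Without set C, where 2 libraries of MYC-OE;Setd2-KO met 1 of MYC-OE, 17 of 33 members tested were called higher, beside 1.88% of all genes, and without MYC-OE;Setd2-KO 3 alone 6 of 28 were, beside 1.8%.

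MYC-OE;Setd2-KO was compared with Setd2-KO to ask what the MYC construct changes when Setd2 is floxed with Cre in both groups. By edgeR 0 of 28 members were called, beside 0% of all genes, with 6 members at an unadjusted p under 0.05. Limma-voom called 0 members and DESeq2 called 3 lower, beside 0.623% of all genes. TrnA, TrnN, TrnC and TrnE stayed under the filter's level in every MYC-OE;Setd2-KO library, and TrnR in every Setd2-KO library. Their direction was therefore fixed, and the counts of members called in this comparison can include them. Among members that reached the level in both groups, the lowest folds were those of TrnP, at -4.11 ± 1.13 (edgeR adjusted p = 0.503), and ND6. Both lie on the minus strand, and TrnP had only 2, 5 and 11 counts in MYC-OE;Setd2-KO. TrnE, whose direction was fixed, stood at -4.79 ± 1.52 (edgeR adjusted p = 0.504). ND6 and TrnP were the only members whose MYC-OE;Setd2-KO libraries all lay below all Setd2-KO libraries, and 3.8% of all genes tested did so. Without Setd2-KO 3, 5 members were called lower, beside 0.73% of all genes. Without set C, where 2 libraries of set B met 2 of set A, 8 of 33 members tested were lower and 6 higher, beside 2.45% and 4.96% of all genes. The sign of 10 of the 28 turned with the set term, among them COX1, COX2, ATP6, COX3, ND3 and ND4L, and the median over the mRNAs was 0.48 without and -0.91 with that term. TrnC and TrnG were also among the 10. TrnC stood at 4.39 ± 3.07 with the term. TrnG had no count in any library of set C, so its fold with the term could not be estimated.
The difference between the Setd2 effect with and without the MYC construct (the interaction) was called for 0 of 28 members, beside 0.0118% of all genes (2 of 17019). Its estimate was above 0 for all 22 that reached the filter's level in MYC-OE, and was 4.17 ± 1.11 for TrnW (edgeR adjusted p = 0.435) and 1.37 ± 0.74 for ND6 (edgeR adjusted p = 0.516), with 6 members at an unadjusted p under 0.05. DESeq2 called 3, beside 0.306% of all genes called higher, and limma-voom 0. The counts called here can include tRNAs that stayed under this level in every MYC-OE library. Without set C edgeR called 14 of 33 members higher, beside 0.383% of all genes, and without MYC-OE;Setd2-KO 3 it called 1, beside 0.101%. The comparisons share groups, so their values are not independent of each other.

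Nuclear copies of mitochondrial DNA can take reads of the mitochondrial genes or give them reads. A search of the members against 141730 GENCODE M21 transcripts found a copy of at least 50 bases and 95% identity for 9 of the 37, and none for the other 28. A stretch of 4663 bases on chromosome 1 (chr1:24611535-24616197) held copies of 7 neighbouring mRNAs in their order. COX2 matched Gm28661 over 681 bases, ATP6 matched Gm10925 over 678 bases, COX3 matched Gm28437 over 783 bases and ND4L matched Gm10222 over 294 bases, all with 0 mismatches. ND3 matched with the 1 difference shown above.
The same stretch held 876 bases of ND4 (63.6% of the gene, 0 mismatches) as Gm28439 and 483 bases of COX1 (31.3%, 1 mismatch) as Gm29216. ATP8 had no annotated copy, but the COX2 and ATP6 copies stand 233 bases apart on chromosome 1, as the matched parts of COX2 and ATP6 do in the mitochondrial genome, where ATP8 lies between them. The 6 mRNAs of the lower tier are thus the 5 that the stretch copies over 98.99% to 99.87% of their length, and ATP8. Copies on chromosomes 2 and 13 of COX1, COX2, ND2 and ND5 matched at 95.2% to 97.6%. No label or header states how reads that match several places were counted, and the part of the copies in the low values was not tested.

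For 2 copies the deposited table has a row of its own, LOC100503946 for the ATP6 copy and Gm10222 for the ND4L copy. The ATP6 copy stood at 694, 803 and 46.7 CPM in MYC-OE;Setd2-KO, 306, 55.2 and 45.8 CPM in MYC-OE, 33.5, 25.1 and 264 CPM in Setd2-KO, and 33.8, 34.7 and 35.0 CPM in WT. ATP6 itself stood at 254, 278 and 28.8 CPM in MYC-OE;Setd2-KO, 83.9, 35.8 and 28.8 CPM in MYC-OE, 69.3, 69.5 and 85.2 CPM in Setd2-KO, and 72.4, 72.8 and 101 CPM in WT. The copy was high in the libraries of set B and in Setd2-KO 3. ATP6 was highest in MYC-OE;Setd2-KO 1 and 2, and in MYC-OE 1 and Setd2-KO 3 it lay within the WT range.
The copy took 73.2%, 74.3% and 61.9% of the counts on both rows in MYC-OE;Setd2-KO, 78.5%, 60.7% and 61.4% in MYC-OE, 32.6%, 26.6% and 75.6% in Setd2-KO, and 31.8%, 32.2% and 25.7% in WT. For ND4L the copy's part was 64.0% to 78.9% in MYC-OE;Setd2-KO, 64.6% to 84.9% in MYC-OE, 31.2% to 78.7% in Setd2-KO and 30.7% to 36.7% in WT. In set A most counts of either pair fell on the mitochondrial gene, and in sets B and C most fell on the copy. The values of COX2, ATP8, ATP6, COX3, ND3 and ND4L are therefore uncertain in every comparison above. ND4 and COX1, of which the same stretch copies 63.6% and 31.3%, may share this in part. Their copies have no row of their own in the deposited table, and the part of these copies was not tested.

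**Figure D5:**
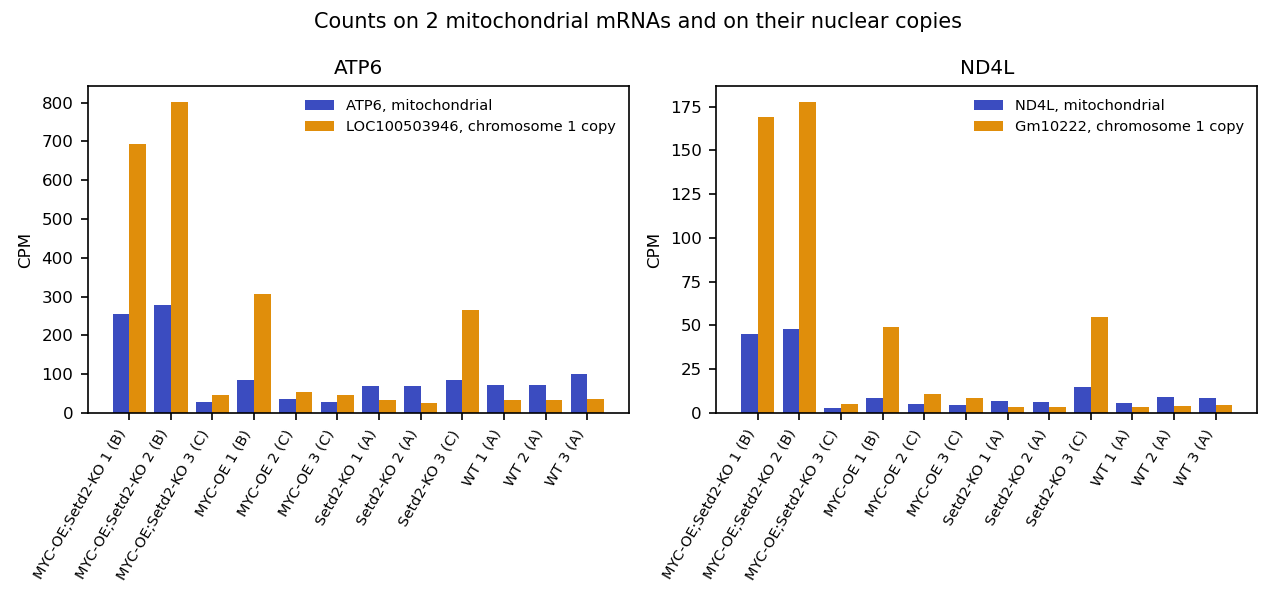
CPM of ATP6 and ND4L and of the deposited rows of their chromosome 1 copies in each library, with the library set in brackets. The copy is the lower bar in set A and the higher bar in sets B and C, and both bars are highest in MYC-OE;Setd2-KO 1 and 2.

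Nuclear genes that copy, transcribe and process the mitochondrial genome were taken from lists written for these steps. In MYC-OE against WT, 0 of 16 genes of mitochondrial DNA maintenance, 0 of 6 of transcription, 0 of 27 of RNA processing and stability, 0 of 12 of tRNA and rRNA modification and 0 of 8 regulators of mitochondrial biogenesis were called by edgeR, with median log2 fold changes of -0.13, 0.46, -0.31, -0.14 and -0.07 in this order. Under total counts the medians lay above 0 for all 5 lists, between 0.43 and 1.25. The calls also turned with the scaling. DESeq2 called 5 of the RNA processing genes, 2 of the regulators and 1 of the maintenance genes lower, and 1 regulator and 1 modification gene higher, beside 9.47% of all genes called lower. With total counts edgeR called 6 maintenance, 2 transcription, 6 RNA processing and 3 modification genes higher and none lower, in a fit that called 4816 of 17019 genes higher.
Tfam, which packages mitochondrial DNA and starts its transcription, had a log2 fold change of -0.58 ± 0.18 (edgeR adjusted p = 0.0675), and Slirp and Lrpprc, partners that hold mitochondrial mRNAs stable, -1.02 ± 0.30 and -0.77 ± 0.25 (edgeR adjusted p = 0.0591 and 0.0712). Polrmt, the mitochondrial RNA polymerase, stood at -0.26 ± 0.34, and its partner Tfb2m at 0.63 ± 0.30 (edgeR adjusted p = 0.592 and 0.156). Polg, the DNA polymerase, stood at -0.19 ± 0.24 and Peo1, the helicase Twinkle, at 0.21 ± 0.16. Elac2 and Trmt10c, which act in cutting tRNAs out of the long transcripts, stood at 0.18 ± 0.23 and -0.46 ± 0.19, Pnpt1 and Supv3l1 of the mitochondrial RNA degrading complex at -0.29 ± 0.23 and -0.31 ± 0.28, and Ppargc1a, a coactivator of mitochondrial biogenesis, at -0.52 ± 0.26 (edgeR adjusted p = 0.12 to 0.588 for these 7). Under total counts the fold changes of Tfam, Polrmt, Polg, Trmt10c, Pnpt1, Supv3l1 and Ppargc1a lay above 0, at 0.18, 0.43, 0.54, 0.31, 0.46, 0.43 and 0.22 in this order, while those of Slirp and Lrpprc stayed below it at -0.25 and -0.05.
Mtpap, the mitochondrial poly(A) polymerase, stood at 8.18, 7.76 and 47.7 CPM in MYC-OE;Setd2-KO, 9.16, 36.7 and 34.6 CPM in MYC-OE, 6.31, 7.50 and 28.5 CPM in Setd2-KO, and 6.36, 7.65 and 7.24 CPM in WT. It was high in every library of set C and low in every other library (1.09 ± 0.68 in MYC-OE against WT, edgeR adjusted p = 0.26).

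The nuclear subunits of the same respiratory complexes had medians below 0 in MYC-OE against WT, with a sign that depended on the scaling for all but complex II. Median log2 fold changes were -0.68 for 36 genes of complex I, -0.75 for 4 of complex II, -0.38 for 9 of complex III, -0.70 for 11 of complex IV and -0.40 for 15 of complex V. Under total counts these were 0.05, -0.05, 0.37, 0.06 and 0.30. Ndufb9 and Ndufs6, both of complex I, fell by 1.03 ± 0.26 and 1.01 ± 0.19 (edgeR adjusted p = 0.0459 and 0.0407), and no other gene of these lists was called by edgeR, while DESeq2 called 11 of complex I and 6 of complex IV lower and 1 each of complexes IV and V higher. With total counts edgeR called 3 of complex I, 1 of complex IV and 3 of complex V higher and 1 of complex I lower. Over all genes the shares called lower were 2.36% by edgeR, 9.47% by DESeq2 and 1.36% by edgeR with total counts. In this order 957, 2881 and 4816 of 17019 genes were called higher. In the remaining 4 comparisons edgeR called none of the 75 genes, with medians between -0.22 and -0.09 in Setd2-KO against WT (-0.01 to 0.14 under total counts) and between 0.20 and 0.30 in MYC-OE;Setd2-KO against MYC-OE (-0.23 to -0.10 under total counts). Ndufs7 of complex I had no count in WT.
Markers of other cells moved in the same comparison as ND6 and the tRNAs. By edgeR 7 of 8 macrophage markers rose, with a median of 4.16, and their sum was 148 to 1758 CPM in MYC-OE against 25.8 to 41.3 CPM in WT. Lymphocyte markers rose for 5 of 8 and fibroblast and mural markers for 3 of 9, with medians of 3.40 and 2.56. Among them were C1qa and Lyz2 of macrophages, at 4.27 ± 0.74 and 4.72 ± 0.86, and Col1a1 of fibroblasts, at 4.41 ± 0.84 (edgeR adjusted p = 0.0407 for each). Over all genes 957 of 17019 were called higher. In MYC-OE 1, 2 and 3 lymphocyte sums were 7.18, 113 and 67.7 CPM, against 2.0 to 3.93 CPM in WT. Fibroblast and mural sums were 282, 1255 and 1544 CPM, against 88.5 to 110 CPM in WT. The rise was thus largest in MYC-OE 2 and 3 of set C. At such WT levels a fall of lymphocyte markers could hardly be called. Proximal tubule markers had a median of -2.07 with 0 of 14 called, podocyte markers -2.39 with 0 of 7, endothelial markers -0.47 with 0 of 7 (0.27 under total counts), and markers of the thick ascending limb and distal tubule 0.44 with 0 of 12; none of these lists had a gene at 0 in a whole group. With the set term 1 macrophage, 2 lymphocyte and 2 fibroblast markers were higher, and 2 proximal tubule and 3 distal markers were lower. The part of these cells in the mitochondrial values was not tested.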

How the data were processed

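The deposited table holds whole-number counts per gene that are not normalized. HISAT2, StringTie, FastQC, MACS2 2.1.1, Trimmomatic 0.35, cutadapt 1.9.1 and the builds mm10 and GRCm38 are listed, with no role, per the submitters' processing notes. No label or header states the counting program, its strand setting or its handling of reads with several matches. CPM were computed from these deposited counts. Counts were tested with edgeR 4.0.16 in R 4.3.3 (TMM scaling, filterByExpr, quasi-likelihood F test, all 12 libraries in 1 fit, 8 residual degrees of freedom, or 6 when the sets entered), with Benjamini-Hochberg adjustment over 17019 genes and a threshold of 0.05; the fit was tested on simulated data. Biological coefficients of variation were 0.575 without and 0.272 with that term; precision is limited by 3 libraries per group. P-values measure the spread between mice as the design text counts them. Copies were searched with blastn 2.17.0. Alternatives were DESeq2, limma-voom, other scalings, filters, sets, blocks and left-out libraries. All members are accounted for; the genes named from other lists are the called ones with the 4 smallest p per list and 13 named regulators. The members and lists were chosen with earlier results of these data known. Set A alone, the alternatives for the list medians, the mRNA share within sets on the TMM scale and the count over members that reach the filter's level in MYC-OE were added after seeing the data. Of the listed genes, Mterf2, Mterf3, Mterf4, Mrm2, Mrm3 and Ndufb1 were not found by symbol. A list of 16 carriers, import and matrix genes had a median of -0.05 in MYC-OE against WT, with 0 called.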

Additional observations from a re-analysis of the deposited data

How the results depend on the processing

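In MYC-OE against WT, where 6 members were called, 19 were called by DESeq2, 2 by limma-voom, 10 with total counts, 12 with library sizes from the mitochondrial mRNAs, 12 of 27 with only these groups in the fit, 3 with the set term and 20 of 33 without set C. Leaving out 1 library in turn gave 0 to 13. Over all genes the share called lower was 9.47% by DESeq2, 1.22% by limma-voom and 1.36% with total counts. It was 11.4% with only these groups and 1.47% with the set term. With library sizes from the mitochondrial mRNAs it was 0.57%, with 84.5% called higher. The shares for the other fits are given with each comparison above, and the counts can include tRNAs whose direction was fixed. ND6 was called in 5 of these 12 fits and stood between -4.82 and -4.26 in all of them. In MYC-OE;Setd2-KO against MYC-OE, where 0 were called, DESeq2 called 6, the set term 4, the fit without set C 17, and leaving out 1 library 0 to 6. In MYC-OE;Setd2-KO against Setd2-KO, DESeq2 called 3, the fit without set C 14, and leaving out 1 library 0 to 5; in the interaction these were 3, 14 and 0 to 1. Setd2-KO against WT kept 0 under every setting. Whether replicate numbers pair the libraries could not be settled. Deviations of same-numbered libraries correlated between -0.60 and 0.68 over 18 pairs, with a mean of 0.187 against -0.109 for other numbers. Of 12 libraries, 7 correlated best with their own number. Libraries of set C from different groups correlated alike with other numbers, as Setd2-KO 3 with MYC-OE 2 (0.606) and MYC-OE 3 (0.602), so sets and numbers cannot be told apart here. With the number as a replicate block 10 members were called in MYC-OE against WT and 0 in each other comparison.

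Per 100 TMM-scaled counts outside the mitochondrial chromosome, the mRNA share differed by -28.2 in MYC-OE against WT and by -11.1 in Setd2-KO against WT. As a share of all counts it differed by -1.07 points within set C in MYC-OE;Setd2-KO against MYC-OE, against -0.05 on the TMM scale. The cause of these shifts was not tested, beyond the smaller number of libraries in some fits. Several single members changed sign. In MYC-OE against WT the log2 fold change relative to the mitochondrial mRNAs was 0.81 for COX1, 1.62 for COX2, 1.67 for ATP8, 0.92 for ATP6, 1.60 for COX3, 1.41 for ND3, 1.28 for ND4L and 1.05 for TrnT; total counts gave 0.016 for COX2, and the fit without set C 0.79 for ATP8, 0.094 for COX3 and 0.26 for ND3. In MYC-OE;Setd2-KO against MYC-OE, relative to the mitochondrial mRNAs, it was -0.10 for ND1, -0.041 for TrnQ, -0.11 for ND2, -0.0089 for COX2, -0.17 for ND5, -0.60 for ND6, -0.52 for TrnE and -0.013 for CYTB, and with total counts -0.11 for ND6. COX1 was at 0.38 in Setd2-KO against WT relative to the mitochondrial mRNAs. In MYC-OE;Setd2-KO against Setd2-KO the set term put TrnM at -1.74, TrnW at -1.25, TrnC at 4.39, COX1 at -0.11, COX2 at -1.46, ATP6 at -1.07, COX3 at -1.24, TrnG at 1.82, ND3 at -1.93 and ND4L at -1.23, and limma-voom TrnL1 at -1.40, TrnM at -1.55 and TrnW at -0.81. Leaving out 1 library gave -0.80 to 0.11 for ND2, -0.66 to 0.22 for ND4, -0.54 to 0.25 for CYTB, -0.18 to 1.11 for TrnL1, -0.11 to 0.86 for TrnW and -0.024 to 1.92 for TrnT in that comparison.

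Low counts limit what can be said of the tRNAs, of which 9 were too low to test, and of the rRNAs in set C, with 8 to 21 counts per library. Only the Setd2-KO group joins set A to the others.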
